A study of Mus musculus with 4 samples.

Results

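The genes described here encode the transcription factors, cofactors and kinases at the end of the Hippo pathway: Tead1, Tead2, Tead3, Tead4, Yap1, Wwtr1, Lats1, Lats2, Vgll3 and Amotl2. They were followed in a list of genomic sites bound by PRDM6, a PR/SET domain protein of smooth muscle cells (SMCs). The members were chosen by gene symbol: every peak that the deposited annotation assigned to 1 of these 10 genes was taken, and a gene with no such peak was kept as a gene without a peak. This gave 28 peaks on 5 of the 10 genes, out of 13977 peaks on 5243 gene symbols in all.

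The data were ChIP-Seq libraries of primary mouse outflow tract SMCs, which the study's methods describe as taken from Prdm6 fl/fl embryos, at an embryonic age that the study gives differently in different places. Cells of both groups had been infected with a lentivirus that overexpressed FLAG-tagged PRDM6. The PRDM6 ChIP group (2 samples) was precipitated with an anti-FLAG antibody, and the Input group (2 samples) went through the same steps without the precipitation. The tag was on an overexpressed protein, so the peaks are not those of PRDM6 at its normal level. The study speaks of immunoprecipitations from a single sample in 1 place and of independent replicates in another, so the spread between the replicates may be technical. A peak list holds no expression values, so markers of the cell type could not be checked in it, and it holds no value for the Input group.

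Hippo signaling is a kinase cascade that holds back the coactivators YAP and TAZ (the product of Wwtr1). The kinases LATS1 and LATS2 phosphorylate YAP and TAZ, which are then kept out of the nucleus. When the cascade is off, YAP and TAZ enter the nucleus and bind TEAD proteins, which carry them to DNA, often at sites that also hold AP-1 factors. In SMCs the pathway is known for its part in growth, in the response to stretch and matrix stiffness, and in the balance between contractile and proliferative states.

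Each peak has a −log10 p-value of the peak caller in each replicate. They are called here the first-listed and the second-listed value, since the list gives the replicates only by order, and the matched −log10 p is the smaller of the pair. The IDR, or irreproducible discovery rate, is given here in its global form, an estimate of the share of irreproducible matches among all pairs that rank as high or higher, and the list codes it in a score (48 is the lowest score and stands for 0.766, and 540 for 0.05). Peaks are numbered along each gene in the direction of transcription, coordinates are GRCm38 (mm10), counted from 1, and sequences are those of the RefSeq GRCm38 genome on the plus strand.

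Vgll3, a transcriptional cofactor that binds TEAD proteins, had 11 peaks, and Wwtr1, which encodes TAZ, had 8. Tead1, the TEAD gene with the longest gene body here, had 6 peaks. Amotl2, which encodes a junction protein of the angiomotin family that binds YAP, had 2 peaks, and the kinase gene Lats2 had 1. The other DNA-binding partners Tead2, Tead3 and Tead4, the coactivator gene Yap1 and the kinase gene Lats1 had none. So 5 of 10 members had a peak, while 20.0% of 21938 protein-coding genes did. The same 5 of 10 members had a peak that the annotation placed at a promoter (within 3 kb of a transcript start), while 8.24% of protein-coding genes did. Of the 4379 protein-coding genes with a peak, 1807 had one at a promoter.

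Long genes had a peak more often, and gene length went with part of this split. Protein-coding genes were put into 10 equal classes by length. In the class of greatest length, which holds Tead1 (227490 bp) and Wwtr1 (120262 bp), 57% had a peak. In the class that holds Yap1 (72598 bp), Tead4 (76536 bp) and Lats2 (68727 bp), the share was 39.7%. The class of Vgll3 (51112 bp) had a share of 25.1%, and that of Amotl2 (16747 bp) had 11.4%. Of the other genes without a peak, Tead2 and Tead3 stood in a class with a share of 14.7%, and Lats1 in one with 18.9%. Averaged over the 10 members, the share for genes of their length was 31.8%. Vgll3 and Amotl2, the shorter genes with peaks, stood in classes where most genes had none, and Yap1 and Tead4 had no peak at nearly the same length as Lats2.

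**Figure D1:**
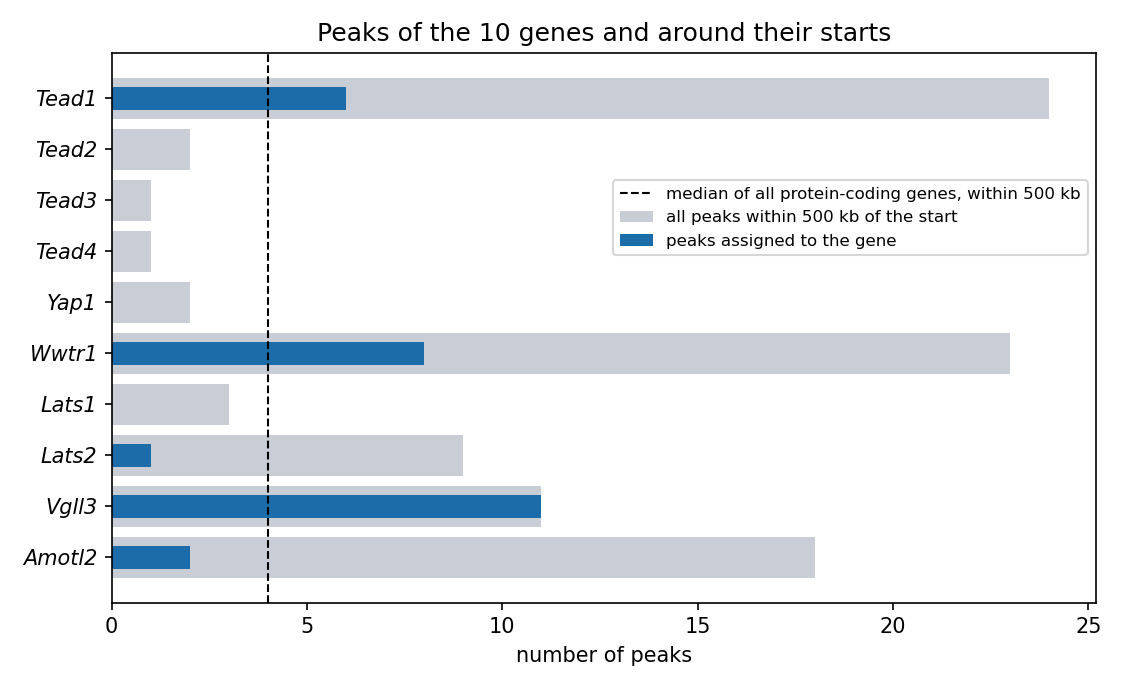
Peaks assigned to each of the 10 genes (blue bars) and all peaks within 500 kb of the gene's start whatever gene they were assigned to (grey bars), with the median of all protein-coding genes as a dashed line at 4. Tead1 (24), Wwtr1 (23), Amotl2 (18), Vgll3 (11) and Lats2 (9) lie above the line, and the genes without a peak lie below it with 1 to 3.

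The genes without a peak, which by definition lack peaks of their own, had 1 to 3 peaks of other genes around them. Within 500 kb of their starts, Lats1 had 3 peaks, Tead2 and Yap1 had 2 each, and Tead3 and Tead4 had 1 each, with a median of 4 over all protein-coding genes (quartiles 1 and 8). The peak nearest to Tead4 was 64121 bp from its start, at the Foxm1 promoter, and the peak nearest to Tead2 was 97101 bp away, at the Trpm4 promoter. For Yap1 the nearest was 98593 bp away, in the 3′ UTR of Cep126, for Tead3 125106 bp, in Fkbp5, and for Lats1 401714 bp, near Cnksr3. No peak in the list was therefore close to any of these starts. A gene without a peak is one with no peak in both replicates at this depth, not one shown to lack PRDM6.

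For the members with peaks, the peaks within 500 kb include their own, so these counts are in part fixed by the choice of genes with a peak. At least as many as around Vgll3 (11) were found for 14.8% of protein-coding genes, as around Lats2 (9) for 21.7%, and as around the genes without a peak for 61.6% to 82.7%. For the others, 0.994% of protein-coding genes had at least as many peaks within 500 kb as Tead1 (24), 1.32% at least as many as Wwtr1 (23) and 4.10% at least as many as Amotl2 (18). Many of those peaks belonged to neighbours: 10 of the peaks around Tead1 were assigned to Parva, which encodes a focal adhesion protein, and 12 of those around Wwtr1 to Tm4sf1. The 11 peaks around Vgll3 were all assigned to Vgll3 itself. Of the 5157 Ensembl gene identifiers with a peak in the list, which are fewer than the gene symbols, 2.42% had at least as many as Vgll3, 5.74% as many as Wwtr1 and 11.1% as many as Tead1.

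**Figure D2:**
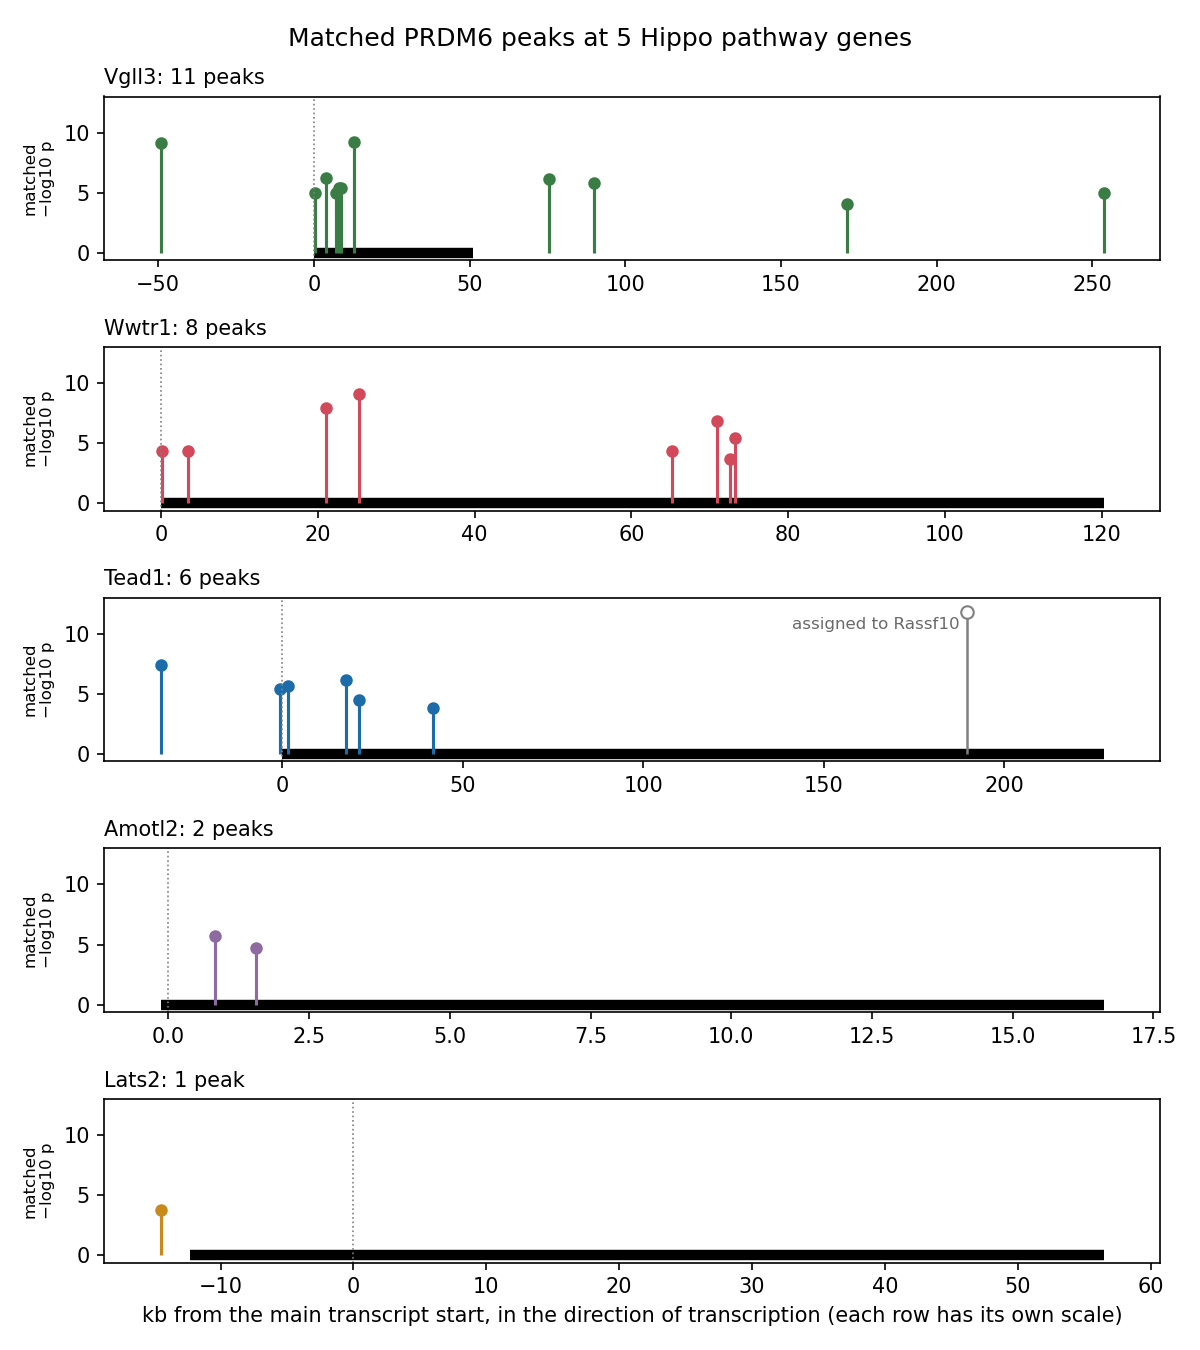
Position of each matched peak relative to the gene's main transcript start (x axis, kb in the direction of transcription, with its own scale for each gene) and its matched −log10 p (y axis); the black bar is the gene. Wwtr1 peaks lie inside the gene or over its start, Vgll3 peaks reach from 48856 bp upstream to 253566 bp downstream of its start, and the open grey circle is the Rassf10-assigned peak inside Tead1.

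Sequences from these peaks come before their values, since the motif counts rest on them. The first set is made of matches to the AP-1 or TEAD motif within 100 bp of the matched summit or of a replicate summit. A TEAD match in Amotl2 peak 1, 40 bp from the second-listed summit, is left out of the set because it overlaps a UTR, and where a peak has several matches only 1 of each motif is shown. The AP-1 motif searched was TGACTCA, and the TEAD motif was AGGAATGC, AGGAATGT, GGGAATGC or GGGAATGT, each on both strands, and no word of one is a word of the other. Capitals mark the match, and each line gives 25 bases on either side of it.
Vgll3 peak 1, TEAD, chr16:65766076-65766133: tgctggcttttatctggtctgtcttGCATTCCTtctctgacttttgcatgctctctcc
Vgll3 peak 1, AP-1, chr16:65766182-65766238: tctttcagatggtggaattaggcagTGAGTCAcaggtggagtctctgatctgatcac
Vgll3 peak 2, AP-1, chr16:65815735-65815791: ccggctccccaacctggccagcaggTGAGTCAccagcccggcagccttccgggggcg
Vgll3 peak 3, TEAD, chr16:65818988-65819045: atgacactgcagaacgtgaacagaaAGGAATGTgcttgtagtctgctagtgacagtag
Vgll3 peak 4, TEAD, chr16:65821431-65821488: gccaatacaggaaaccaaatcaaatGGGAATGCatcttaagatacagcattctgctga
Vgll3 peak 6, TEAD, chr16:65823892-65823949: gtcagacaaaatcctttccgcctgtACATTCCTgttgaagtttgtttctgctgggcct
Vgll3 peak 9, AP-1, chr16:65904558-65904614: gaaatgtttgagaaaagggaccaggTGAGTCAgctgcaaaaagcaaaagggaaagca
Vgll3 peak 11, AP-1, chr16:66068839-66068895: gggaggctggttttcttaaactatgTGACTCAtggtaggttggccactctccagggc
Wwtr1 peak 6, AP-1, chr3:57504937-57504993: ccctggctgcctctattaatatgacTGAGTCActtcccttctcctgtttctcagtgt
Wwtr1 peak 8, TEAD, chr3:57502688-57502745: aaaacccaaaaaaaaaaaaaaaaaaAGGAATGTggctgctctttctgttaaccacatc
Lats2 peak 1, TEAD, chr14:57760615-57760672: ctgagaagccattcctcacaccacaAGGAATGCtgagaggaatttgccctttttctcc

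The second set is the strongest peak of Vgll3, of Wwtr1 and of Tead1, with 50 bases on either side of the matched summit. None of these stretches holds an AP-1 or an 8-base TEAD match, so they are in lower case throughout.
Vgll3 peak 7 summit, chr16:65828234-65828334: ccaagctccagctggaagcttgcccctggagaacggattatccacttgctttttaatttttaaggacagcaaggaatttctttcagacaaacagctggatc
Wwtr1 peak 4 summit, chr3:57550606-57550706: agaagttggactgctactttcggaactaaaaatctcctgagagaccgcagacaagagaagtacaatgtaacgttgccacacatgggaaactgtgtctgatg
Tead1 peak 1 summit, chr7:112645667-112645767: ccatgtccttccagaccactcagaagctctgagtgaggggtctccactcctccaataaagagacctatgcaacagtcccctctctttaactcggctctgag

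The third set is a pair of summits that fall on simple repeats, a run of CA pairs in Tead1 and a run of CCTT in Vgll3, where short reads are in general hard to place.
Tead1 peak 5 summit, chr7:112700496-112700596: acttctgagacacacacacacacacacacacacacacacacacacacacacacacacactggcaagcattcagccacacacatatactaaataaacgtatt
Vgll3 peak 5 summit, chr16:65823403-65823503: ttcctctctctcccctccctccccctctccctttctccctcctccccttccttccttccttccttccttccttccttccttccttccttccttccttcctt

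Vgll3 (chr16:65815257-65866368, plus strand) had the strongest member peak. Peak 7 (chr16:65827795-65828553) had a first-listed −log10 p of 9.19 and a second-listed value of 12.2, a score of 327 and a global IDR of 0.163. By matched −log10 p it stood at percentile 91.0 of all peaks. The annotation called it a promoter peak because it lay 60 bp from the start of a processed transcript, but in the main transcript it covered exon 2 (283 bp, coding) and its summit was 108 bp further on, in intron 2. The peak at the main start, peak 2 (chr16:65814634-65816674), was far weaker, with 5.00 in the first-listed and 5.53 in the second-listed replicate and the lowest score of 48. It was 2041 bp wide, and the replicate summits were 1038 bp apart, so the replicates placed the top of this peak differently.

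The other Vgll3 peaks fell into an upstream site, a cluster in intron 1 and a downstream group. Peak 1 (chr16:65766037-65766401), 48856 bp upstream, had 10.4 in the first-listed and 9.10 in the second-listed replicate, with summits only 4 bp apart, the closest in position of any Vgll3 peak. Peaks 3 to 6 lay 3303 to 8574 bp into the gene with matched values of 4.98 to 6.21. Downstream of the gene, peaks 8, 9, 10 and 11 lay 74682, 89241, 171048 and 253566 bp from the main start. Peak 8 had 6.15 and 8.25 and peak 10 had 4.04 and 5.67 in the first-listed and second-listed replicate. Peak 9 went the other way from peak 11: the first had 10.2 and 5.84, the second 5.00 and 9.10. No peak within 500 kb of the Vgll3 start was given to another gene, and the assignment of the distal peaks rests on distance in the annotation alone. In the gene models used here, peaks 1, 8, 9, 10 and 11 each lay nearer to another transcript start than to their assigned Vgll3 start. The distances were 26970 against 48856 bp for peak 1, 24233 against 61326 bp for peak 8 and 9578 against 75885 bp for peak 9. For peak 10 they were 25080 against 157692 bp, and for peak 11 107598 against 240210 bp.

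Wwtr1 (chr3:57455649-57575910, minus strand) had its stronger peaks far inside the gene. Peak 4 (chr3:57550412-57550982), 24928 bp from the start in intron 2, had 10.2 and 9.10, heights of 18 and 16 fragments and a score of 319. Peak 3 (chr3:57554079-57555243), in the same intron, had 7.95 and 9.10 and a score of 229. At the start itself, peak 1 (chr3:57575075-57576342) had 5.85 in the first-listed and 4.37 in the second-listed replicate, with the lowest score. In both replicates the values of peaks 3 and 4 were thus above that of the start.

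Further into intron 2, Wwtr1 peaks 5 to 8 lay between 65021 and 73054 bp from the start. Peak 6 (chr3:57504340-57505099), the strongest of these, had 7.71 and 6.86, and peak 7 had 6.15 and 3.73, the lowest matched value of all member peaks. Peaks 7 and 8 were only 22 bp apart. Peak 8 had 5.42 and 7.42, and 69.3% of the bases within 50 bp of its summit were masked as repeats in the reference. The sequence above shows its TEAD match directly after a run of A.

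Tead1 (chr7:112679318-112906807, plus strand), the DNA-binding partner of YAP and TAZ with peaks here, had its strongest assigned peak outside the gene. Peak 1 (chr7:112645658-112645822), 33496 bp upstream in an intron of the noncoding gene 2310014F06Rik, had 9.37 and 7.42, heights of 17 and 14 fragments and a score of 221. Close to the start, peak 2 (chr7:112678586-112678901), 417 bp upstream, had 5.42 and 5.84 with 12 fragments in each replicate, and peak 3, 1288 bp downstream in intron 1, had 5.69 and 7.42. The replicates were close to each other at peak 2 and peak 4 (6.15 and 6.61), and far apart at peak 6 (8.52 and 3.83). Peak 5, on the CA run printed above, had 4.49 and 5.67.

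The strongest peak inside the Tead1 gene was not among the 6 assigned to it. It lies at chr7:112868711-112869293, 189393 bp from the main start, with its summit in intron 10 of the main transcript, and overlaps no exon. The annotation gave it to Rassf10, whose start is 84669 bp away and so nearer than the main start of Tead1. It had 17.9 in the first-listed and 11.8 in the second-listed replicate, of which the first-listed and the matched value were above those of every member peak, summits 8 bp apart, and a score of 635, which is a global IDR of 0.0296. It was found after the member values were known and is not counted among the 28 peaks. It holds no AP-1 match, no 8-base TEAD match and no TEAD core, and it is printed here because it is the site in Tead1 with the highest value in both replicates.
Tead1 intron 10 summit, chr7:112868940-112869040: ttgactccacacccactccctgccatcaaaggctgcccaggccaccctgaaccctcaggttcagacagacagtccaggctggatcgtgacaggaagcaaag

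Amotl2 (chr9:102716672-102733418, plus strand) had both of its peaks at transcript starts. Peak 1 (chr9:102717069-102717828) had 5.69 in the first-listed and 8.25 in the second-listed replicate, and peak 2 (chr9:102718125-102718634) had 4.71 and 7.42. The second-listed value was the higher at both, and 296 bp separated the peaks. A stronger group lay downstream: 5 peaks between chr9:102759322 and chr9:102779770 were given to Gm5627, with matched values up to 8.28.

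Lats2 (chr14:57689662-57758388, minus strand) had 1 peak, and its replicates differed most of all members. It lies at chr14:57759773-57760969, 13650 bp upstream of the main start and 1385 bp from the start of another transcript, which is why the annotation calls it a promoter peak. The first-listed value was 3.75 and the second-listed 9.03, a gap of 5.28, and the replicate summits were 605 bp apart. The TEAD match printed above was 18 bp from the second-listed summit and 624 bp from the first-listed one.

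**Figure D3:**
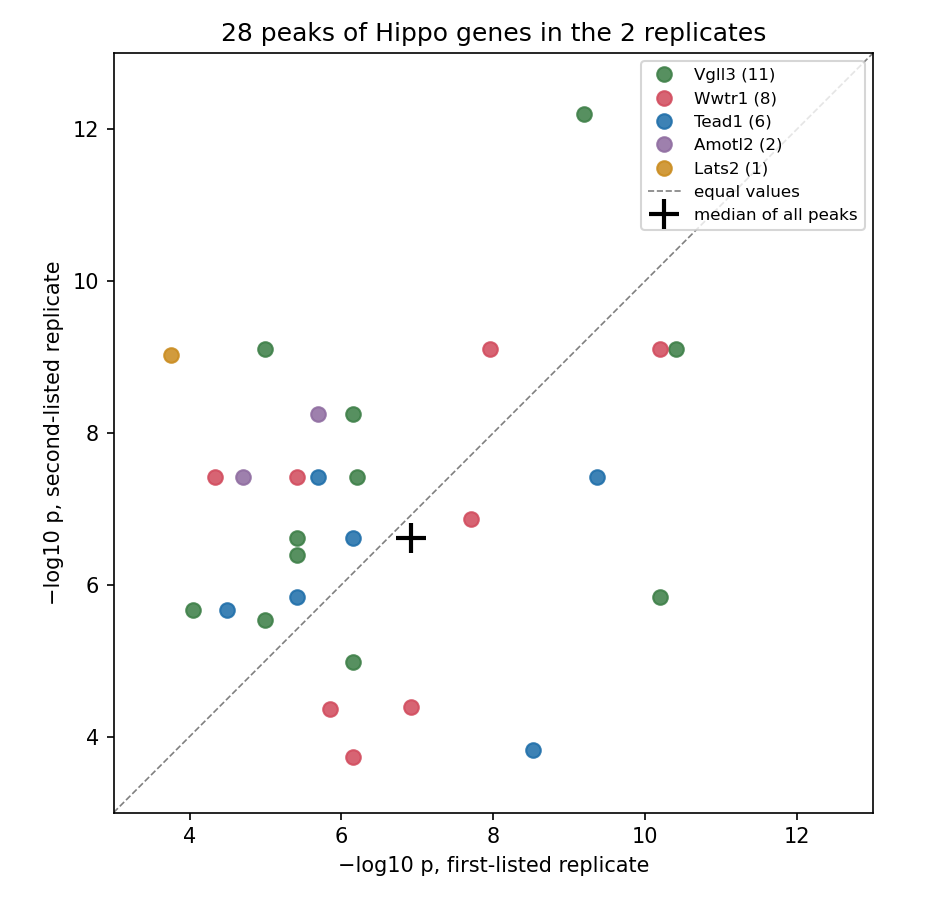
First-listed (x axis) against second-listed −log10 p (y axis) of the 28 member peaks, coloured by gene; the dashed line marks equal values and the cross the medians of all peaks (6.92 and 6.61). Most points lie above the line, 18 of 28, and the points of Lats2, Tead1 peak 6 and Vgll3 peaks 9 and 11 lie farthest from it.

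As a group the member peaks were near the middle of the list in strength. Their median matched −log10 p was 5.42 (3.73 to 9.19), against 5.53 (3.01 to 29.0) for all peaks. None of the 28 reached a global IDR of 0.05 or less, and 3.33% of all peaks did, so a count of 0 among 28 is near the share of the list. The lowest score was held by 14 of 28 (50%), against 41.4% of all peaks, and 12 had a matched value above the median of the list. The highest matched values among them, 9.10 to 9.19, belonged to Vgll3 peaks 1 and 7 and Wwtr1 peak 4.

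The values of the member peaks differed between the replicates. The median was 6.0 in the first-listed and 7.14 in the second-listed replicate, whereas over all peaks the first-listed was the higher (6.92 against 6.61). The second-listed value was the higher at 18 of 28 member peaks (64.3%) and at 47.9% of all peaks. The median gap between the values of a member peak was 1.68 (largest 5.28), against 2.0 for all peaks. A difference of 1.68 or less between member peaks is thus no larger than the median gap between replicates. Where heights could be read back from the p-values, they were 10 to 18 fragments in the first-listed (16 peaks) and 10 to 16 in the second-listed replicate (17 peaks), above backgrounds of 2.61 and 2.39 fragments. For 5 member peaks, Vgll3 peak 7 among them, no height could be read in either replicate.

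By position, the shares of member peaks at promoters and in introns were above those of all peaks, but the intervals of both include the share of all peaks. The annotation placed 10 of 28 (35.7%, 95% Wilson interval 20.7 to 54.2) at promoters, against 21.3% of all peaks, and 4 lay over a transcript start (14.3% against 6.64%). Introns held 13 (46.4%, 29.5 to 64.2), against 35.9%. Distal intergenic sequence held 5 (17.9%, 7.88 to 35.6), all of Vgll3, against 37.2%, and this interval lies just below the share of all peaks. No member peak was exonic by the annotation, against 4.10%. The intervals cover counting error over peaks only, and peaks of 1 gene share their neighbourhood. Of the 10 promoter peaks, Vgll3 peaks 3 and 7 and the Lats2 peak owed the label to the start of a transcript other than the main one.

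Matches to the TEAD motif near the matched summit were found in 5 of 28 member peaks (17.9%, 95% Wilson interval 7.88 to 35.6) within 100 bp, and in 7.45% of all 13977 peaks in windows of that length. In windows of like size 1000 bp away, the shares were 7.14% and 3.23%. The 5 were Vgll3 peaks 1, 3 and 6, Wwtr1 peak 8 and the Lats2 peak, and in Vgll3 peak 6 the match was 2 bp from the second-listed summit but 116 bp from the first-listed one. The lower end of the interval is just above the share of all peaks here, but it treats peaks of 1 gene as separate, and it includes that share within 50 bp of the summit (1.98 to 22.6 against 4.09%) and around the first-listed summit (3.71 to 27.2 against 7.16%), while it lies above that share within 250 bp (20.7 to 54.2 against 15.7%) and around the second-listed summit (10.2 to 39.5 against 6.83%). The core GGAATG alone was found in 7 of 28 (12.7 to 43.4%) against 19% of all peaks. Anywhere in the peak, 9 of 28 (32.1%, 17.9 to 50.7) held a TEAD match against 19.2% of all peaks, and member peaks were also somewhat wider (median 676.5 bp against 600.0 bp). Vgll3 peak 4, which is 1568 bp wide, held 4 of these matches, the nearest 6 bp from the first-listed summit and 884 bp from the matched one.

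The AP-1 motif was found within 100 bp of the matched summit in 4 of 28 member peaks (14.3%, 5.70 to 31.5) and in 14.3% of all peaks. Anywhere in the peak, 7 of 28 (25%) held an AP-1 match, against 34.3% of all peaks, and within 250 bp the shares were 25% and 30.7%. In Vgll3 peak 1 the AP-1 match was 49 bp to one side of the summit and the TEAD match 56 bp to the other. In Vgll3 peak 11 the AP-1 match was 6 bp from the second-listed and 41 bp from the first-listed summit, and in Wwtr1 peak 6 it was 16 and 77 bp away in that order. In Vgll3 peak 2 the match began at base 2 of intron 1, at the splice donor after exon 1, and although it sat on the matched summit it was 588 and 450 bp from the replicate summits. None of the 6 Tead1 peaks held an AP-1 or an 8-base TEAD match. A match describes letters only, and TEAD or AP-1 binding was not measured.

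The rest of the pathway was read from 55 further genes in 6 lists, which like the members were chosen with earlier results of these data known. Of these genes 33 (60.0%) had a peak, with 142 peaks in all, against 20.0% of protein-coding genes. The mean share with a peak for genes of their length was 30.6%. A promoter peak was found at 21 of the 55, against 8.24% of protein-coding genes. In the core kinase module, which activates LATS, Stk3 and Sav1 had 2 peaks each and Mob1a had 1, while Stk4 and Mob1b had none. The strongest of these, 10837 bp upstream of Sav1, which encodes the scaffold of the kinases, had 15.8 and 10.4. Of the other kinases upstream of LATS 5 of 10 had a peak, of scaffolds and upstream regulators 6 of 12, of the STRIPAK phosphatase complex 3 of 5, and of the other VGLL cofactors 2 of 3. The mean shares for genes of their length were 37.3%, 34.1%, 24.7% and 20.8% in that order, and 30.2% for the core kinase module.

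**Figure D4:**
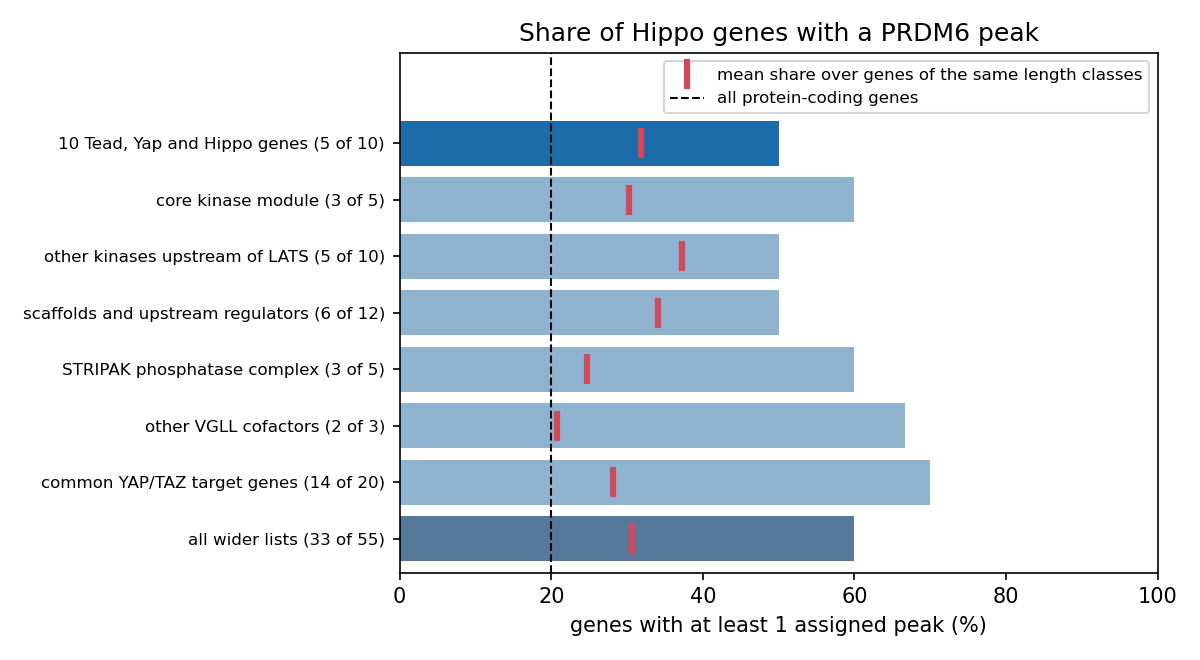
Share of genes with at least 1 assigned peak (x axis, %) in the 10 members and in each further list (bars, with counts in the labels); the dashed line marks all protein-coding genes (20.0%) and the red ticks the mean share over genes of the same length class. Common YAP/TAZ target genes have the longest bar, 14 of 20 against a tick at 28.1%.

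Common YAP/TAZ target genes held most of the peaks, 89 of the 142, on 14 of 20 genes (70.0%). The mean share for genes of their length was 28.1%. Asap1, which encodes a regulator of ARF GTPases, had 20 peaks, Rbms3, for an RNA-binding protein, had 15 and Ccdc80, for a matrix protein, had 10. Ccn1, a matrix signaling protein and classic target, had 7 peaks, as did Myof, Crim1 and the upstream cadherin gene Fat4, and Frmd6, a scaffold of the pathway, had 8. Ccn2, the paralog of Ccn1, had none, and it was named after its value was seen. At 6 of the 55 genes a peak reached a global IDR of 0.05 or less (10.9%), against 1.63% for protein-coding genes. Counted by peak, it was 7 of 142 (4.93%) against 3.33% of the list, and genes with more peaks, such as Asap1 and Rbms3, have more chances to count by gene. Ccdc80 had 2 of them, the stronger with 15.8 and 18.8, and Frmd6 had its own at the promoter with 16.8 and 14.7. Ankrd1, which encodes a stretch-responsive muscle protein, had 21.0 and 12.8 upstream of the gene, Asap1 had 16.9 and 13.2, Rbms3 13 and 13.7 and Nt5e, for an ecto-nucleotidase, 14.9 and 11.3. The Nt5e site was 234375 bp and the stronger Ccdc80 site 53986 bp from the gene's start, so their assignment rests on distance. Inside a member gene, the intron 10 site of Tead1 was the only peak at this IDR limit.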

How the data were processed

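PRDM6 ChIP-Seq was done with an anti-FLAG antibody, and an Input library was made for each of the 2 replicates. The study's methods state that reads were trimmed, filtered and aligned to mm10 with BWA, and that peaks were called in each replicate against its Input with MACS2. The deposited list holds peaks matched between the replicates, with a score that codes the global IDR and the −log10 p-values that the authors' peak caller gave. The deposited annotation gives each peak a gene and its distance to a transcript start. The list names the replicates by order only, so which sample is the first-listed is not known. No test was run, since the list has no Input values and peaks of a gene are not replicates.

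Computed here were counts, medians, gene models from GENCODE M21, and motif matches in the GRCm38 genome. Heights in fragments were read from −log10 p-values that fit Poisson tails with 1 background mean within 0.0002 (58.3% of first-listed and 63.5% of second-listed values), since total depth is not given in the sources used here. The reading of heights and the motif search were tested on simulated data. Named genes were all 10 members with their nearest and strongest peaks, and, of the wider lists, the 8 genes with most peaks, every gene that reached a global IDR of 0.05 and the core kinase module, with Ccn2 named outside this rule. Members and lists were chosen with earlier results of these data known. The software was Python 3.11.15 with SciPy 1.17.1, pandas 2.3.3 and NumPy 2.4.6, and figures were drawn in matplotlib 3.10.9.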

Additional observations from a re-analysis of the deposited data

How the results depend on the processing

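The number of member peaks (28) depended on the strength asked of a peak, and no member had a peak under the IDR limits. When the global IDR had to be 0.05 or lower, and likewise at 0.01, 0 peaks and 0 members were left, and no promoter share could be given. At 0.05, 1.63% of protein-coding genes had a peak, so 0 of 10 members is near that share. Among peaks above the median strength of the list 12 were left, on 4 members (13.6% of protein-coding genes had such a peak). Within 10 kb of the transcript start that the annotation used, 15 were left, on 5 (11.8%). That start was not always the main one, and the only Lats2 peak was 13650 bp from its main start. The median −log10 p ranged from 6.0 to 7.14 when a single replicate was used. The share of summits with a TEAD match was 7.14% within 50 bp (4.09% of all peaks) and 35.7% within 250 bp (15.7%), 25% for the core GGAATG (19%), and 10.7% to 21.4% with the summits of a single replicate (7.16% and 6.83% of all peaks). For AP-1 the single-replicate range was 10.7% to 14.3% (13.3% and 12.3% of all peaks). The share of wider genes with a peak was 10.9% when the IDR had to be 0.05 or lower (1.63% of protein-coding genes). The share at promoters was 21.4% within 1 kb (14.7% of all peaks) and 28.6% with starts of the basic gene models (23.5%), the latter chosen after seeing the data, as was the count of 23 when peaks under 1 kb apart were joined. No paired analysis was possible because no result comes from a test. Heights, recovered for 16 and 17 of the 28 peaks, were 10 to 18 fragments, and the effect of depth on the list was not tested.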
